A study of Caenorhabditis elegans with 4 samples.

Results

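The genes described here are the astacin proteases, cuticlins and molting genes of Caenorhabditis elegans, taken as every row of the deposited table with a gene name starting nas-, mlt-, noah-, cut- or cutl-. The rule found 53 of 16562 loci, made up of 29 nas, 5 mlt, 2 noah, 1 cut and 16 cutl loci. RefSeq (assembly WBcel235) lists 82 genes with such symbols, and those without a row are not analysed here.

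A nematode sheds its cuticle and builds a new one at each larval molt. The epidermis secretes a temporary apical matrix, then the collagens and cuticlins of the next cuticle, and proteases release the old one. Astacins are zinc metalloproteases, some of which process procollagen or act in shedding. Many cuticlins, though not all, and the noah products carry zona pellucida (ZP) domains, which let matrix proteins assemble into filaments and sheets. Many of these genes are transcribed in pulses, once per molt.

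Worms of the WT genotype were exposed at L4, the last larval stage, to 1 mM MAHMA NONOate, a compound that releases nitric oxide (NO), and whole worms were lysed for RNA once they had recovered for 4 h at 20 °C. There were 2 control and 2 NO samples, all fed E. coli OP50. The control samples carry the agent label control and the same protocol text as the NO samples, so their handling, including any exposure to the donor compound after its NO was released, is not given. The authors' deposited table holds 1 value per condition for each locus, read here as FPKM, a fragment count scaled by transcript length and library size, so no spread between samples can be shown and the depth of each library is unknown. Each standard error (SE) below is the size of the deposited log2 fold divided by the size of the deposited test statistic, whose sign is opposite to that of the fold. Separate cultures for the samples of a group are not stated, so the deposited p-values may reflect technical spread. In RNA from whole worms, fewer cells of a type and less RNA per cell cannot be told apart.

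Most nas, mlt and cutl loci had higher values after NO, but no single member passed the authors' test. In the authors' deposited table, 46 of the 53 loci were higher after NO and 7 were lower, with a median log2 fold of 0.58, against -0.02 over the 15621 loci above 0 in both conditions. A higher value after NO was seen in 47.8% of those 15621 loci. At an adjusted p of 0.05 in the same deposited comparison, 0 of 53 members were called higher and 0 lower, where 0.386% of all loci were called higher and 0.0121% lower. Before adjustment, 3 members (nas-30, nas-38 and mlt-8) were higher with a p under 0.05 and 0 were lower, beside backgrounds of 2.75% and 0.338%. At least a 2-fold higher value was listed for 15 members and at least a 2-fold lower value for 0, where the shares of all loci were 8.33% and 2.43%. Of these 15, 6 averaged under 1 FPKM and 9 between 1 and 10 FPKM, whereas the shares cover loci of every abundance. None of the 53 was at 0 in either condition, and together they held 0.0216% of the summed control FPKM and 0.0281% of the summed NO FPKM.

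**Figure D1:**
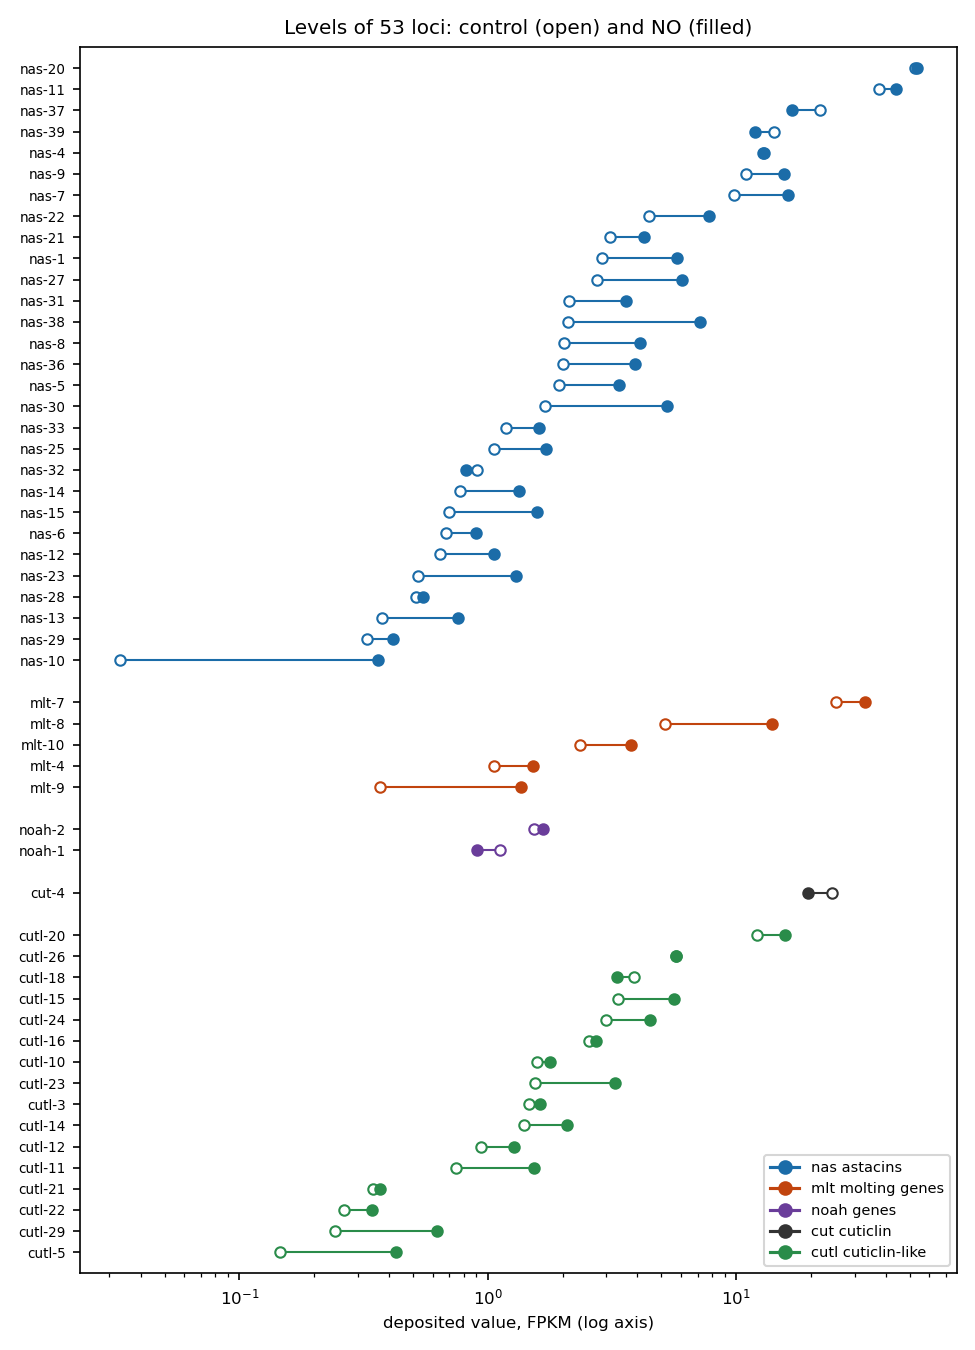
Deposited level of each of the 53 loci in control (open circle) and after NO (filled circle), in FPKM on a log axis, grouped by family and ordered by control level. The filled circle lies to the right for 46 loci, and the most abundant astacin, nas-20, has nearly coincident circles at 52.5 and 53.5 FPKM.

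Among the 29 astacin loci, 26 had a higher value after NO and 3 a lower one, with a median log2 fold of 0.72 and a range from -0.36 to 3.45. nas-38, whose product promotes sleep during the molt, was listed at 2.10 FPKM in control and 7.16 FPKM after NO in the authors' deposited table. The 3.41-fold difference did not pass that table's test (log2 fold 1.77, SE 0.56, unadjusted p = 0.00163, adjusted p = 0.215). Its 95% interval, from 0.67 to 2.87 on the log2 scale, lay above 0. nas-30 had deposited levels of 1.70 FPKM in control and 5.25 FPKM after NO (log2 fold 1.63, SE 0.61, unadjusted p = 0.00751, adjusted p = 0.586), and it too had an interval above 0. These were the 2 astacins whose intervals left out 0, while the intervals of the other 27 included it.

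nas-36 and nas-37 both act in shedding the old cuticle, and their deposited log2 folds had opposite signs. nas-36 was listed at 2.01 FPKM in control and 3.93 FPKM after NO (log2 fold 0.96, SE 0.58, adjusted p = 0.99994 in the authors' deposited table). nas-37 was the more abundant in control, at 21.7 FPKM, and was listed at 16.8 FPKM after NO (log2 fold -0.36, SE 0.37). Neither interval left out 0, and the difference between the 2 genes was not tested. nas-39, a relative of the vertebrate procollagen protease BMP1, was listed at 14.1 and 11.9 FPKM in a row joined with F38E9.1, so its own value cannot be separated.

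Other weakly expressed astacins had higher values after NO without passing the test. nas-27 was listed at 2.75 and 6.03 FPKM (log2 fold 1.13, SE 0.59, unadjusted p = 0.0531 in the deposited table). nas-1 went from 2.88 to 5.81 FPKM and nas-8 from 2.03 to 4.12 FPKM, 2.01-fold and 2.03-fold. nas-10 had the highest listed fold of the 53 loci, 10.9, but its levels of 0.0331 and 0.361 FPKM were near the bottom of the range and its SE was 2.90. nas-6, linked to the grinder of the pharynx, was listed at 0.676 and 0.896 FPKM with an SE of 1.43. These levels lay below those of nas-7, listed at 9.81 and 16.2 FPKM (log2 fold 0.72, SE 0.50).

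The 2 most abundant astacin loci had similar values in both conditions. nas-20 was listed at 52.5 and 53.5 FPKM, with a log2 fold of 0.03 and a 95% interval from -0.66 to 0.72. nas-11 was listed at 37.5 and 43.9 FPKM, with a log2 fold of 0.22 and an interval from -0.57 to 1.02. These intervals still allow levels up to 1.64-fold and 2.02-fold those of control. nas-20, nas-21 and nas-22 follow each other in the RefSeq gene order, yet their control levels were 52.5, 3.10 and 4.46 FPKM. After NO nas-21 was listed at 4.25 FPKM and nas-22, in a row shared with a piRNA gene, at 7.79 FPKM. In sum, the 7 astacin loci averaging 10 FPKM or more held 159 FPKM in control and 171 FPKM after NO, while the other 22 held 32.8 and 63.7 FPKM. Of those 22, 21 were higher after NO and 1 was lower, and of the 7, 5 were higher and 2 lower. nas-7 fell among the 7 although its control value, 9.81 FPKM, was below 10 FPKM. Among all loci, 63.7% were higher below a mean of 1 FPKM and 61.6% between 1 and 10 FPKM. Between 10 and 100 FPKM the share was 37.6%.

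**Figure D2:**
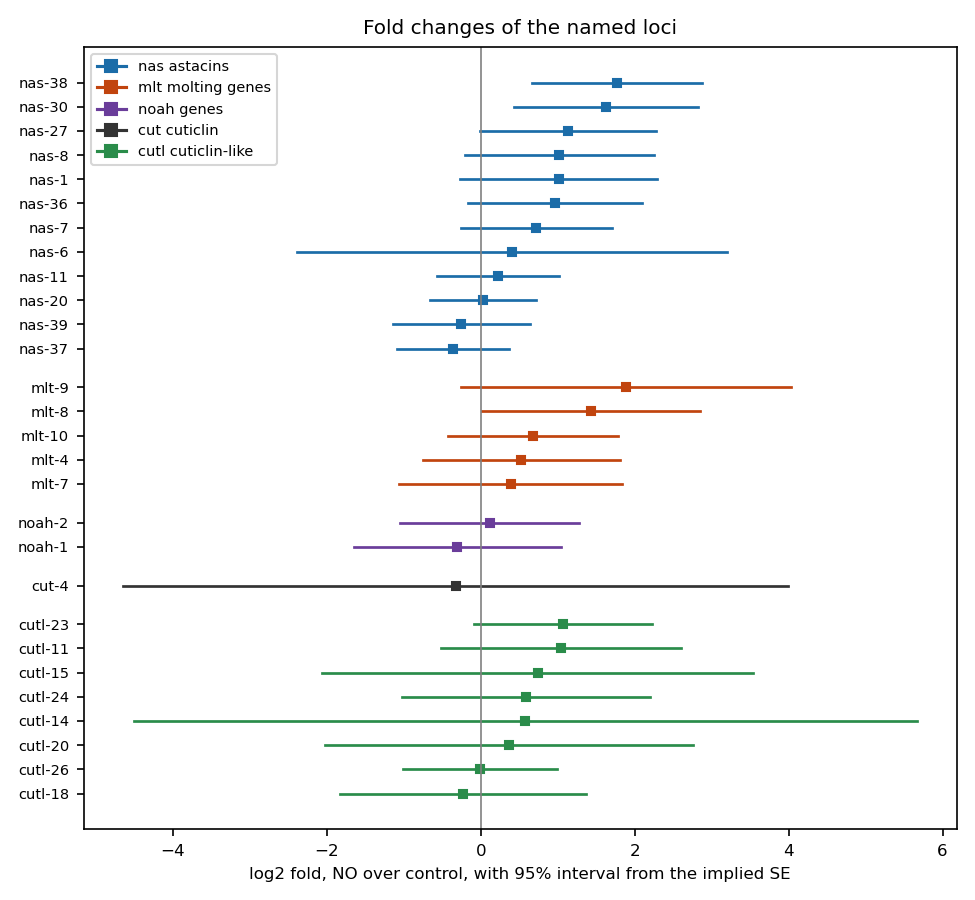
Log2 fold of NO over control for the 28 loci named by rule, with the 95% interval from the implied SE, coloured by family. The intervals of nas-38, nas-30 and mlt-8 lie above 0, and those of cut-4 and cutl-14 span more than 8 units.

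All 5 mlt loci had higher values after NO, with log2 folds from 0.39 to 1.89. mlt-8, a gene needed to complete the molts, was listed at 5.19 FPKM in control and 13.96 FPKM after NO in the authors' deposited table. The 2.69-fold difference had an unadjusted p of 0.0482 in that table and an adjusted p = 0.99994, so it did not pass (log2 fold 1.43, SE 0.72). mlt-9, another gene of the same mutant class, was listed at 0.369 and 1.36 FPKM, a 3.69-fold difference with an SE of 1.09 on the log2 scale. mlt-10, which founds a nematode family of epidermal genes transcribed before each molt, was listed at 2.36 and 3.77 FPKM (log2 fold 0.68, SE 0.56). The most abundant, mlt-7, encodes a haem peroxidase that acts on cuticle collagens, and was listed at 25.3 and 33.1 FPKM (log2 fold 0.39, SE 0.74). mlt-4, an ankyrin repeat protein gene related to inversin, was listed at 1.06 and 1.53 FPKM.

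The noah and cut loci had small or imprecise differences. noah-1, a gene of the apical matrix beneath which new cuticle forms, was listed at 1.12 FPKM in control and 0.906 FPKM after NO, and noah-2, in a row shared with a piRNA gene, at 1.53 and 1.66 FPKM. Their log2 folds of -0.30 (SE 0.69) and 0.12 (SE 0.59) had intervals that included 0. The single cut- locus, cut-4 joined with E04D5.4, was listed at 24.3 and 19.4 FPKM. Its SE of 2.20 gave an interval from -4.64 to 3.99, wide enough to hold large changes both ways.

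Of 16 cutl loci, 14 were higher after NO and 2 lower, with a median log2 fold of 0.40, and all 16 intervals included 0. cutl-23 had the smallest p of the family. It was listed at 1.54 FPKM in control and 3.24 FPKM after NO (log2 fold 1.07, SE 0.59, unadjusted p = 0.0694 in the authors' deposited table). cutl-11 was listed at 0.745 and 1.53 FPKM, cutl-24, joined with Y38C1AA.6, at 2.99 and 4.50 FPKM, and cutl-15 at 3.36 and 5.60 FPKM, with SEs of 0.80, 0.82 and 1.43. cutl-14 was listed at 1.40 and 2.09 FPKM with an SE of 2.60. At the top of the family's abundance, cutl-20, joined with shc-1, was listed at 12.2 and 15.7 FPKM, and cutl-26 at 5.75 and 5.71 FPKM. cutl-18 was listed at 3.87 FPKM in control and 3.31 FPKM after NO.

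Some genes of these families stand in the table under other names, which the rule did not read. cut-2, a cuticlin gene listed as F53F1.5, had 8.29 FPKM in control and 30.0 FPKM after NO in the authors' deposited table. Its 3.625-fold difference (log2 fold 1.86, SE 0.58, unadjusted p = 0.00149, adjusted p = 0.201) did not pass, and its interval from 0.71 to 3.004 lay above 0. mlt-2 and mlt-3, ankyrin repeat protein genes listed as C01H6.2 and Y39C12A.1, had 2.31 and 2.16 FPKM, and 5.46 and 7.64 FPKM, in control and after NO. The astacin gene dpy-31, whose product cleaves procollagen, was listed at 15.3 and 19.4 FPKM, and the tolloid-related toh-1 at 15.5 and 24.6 FPKM (log2 folds 0.34 and 0.66, SEs 0.40 and 0.42). hch-1, mlt-11, cut-1, cut-3, cut-5 and cut-6 are not analysed here.

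The difference from the table as a whole varied with abundance. Each range uses the mean of the control and NO values, for members and all loci alike, so either value can place a locus. Below a mean of 1 FPKM, 12 of 13 members were higher after NO, where 63.7% of all loci in that range were, and the median log2 folds were 0.72 and 0.26. Between 1 and 10 FPKM, 27 of 30 members were higher, beside 61.6% of all loci, with medians of 0.72 and 0.13. Between 10 and 100 FPKM, 7 of 10 members were higher, beside 37.6% of all loci, with medians of 0.13 and -0.09. Higher values after NO were thus common among all weakly expressed loci, and the medians of the members lay above those of all loci in each of the 3 ranges. No chance test of these lists was made, and the part of abundance in the result was not tested.

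**Figure D3:**
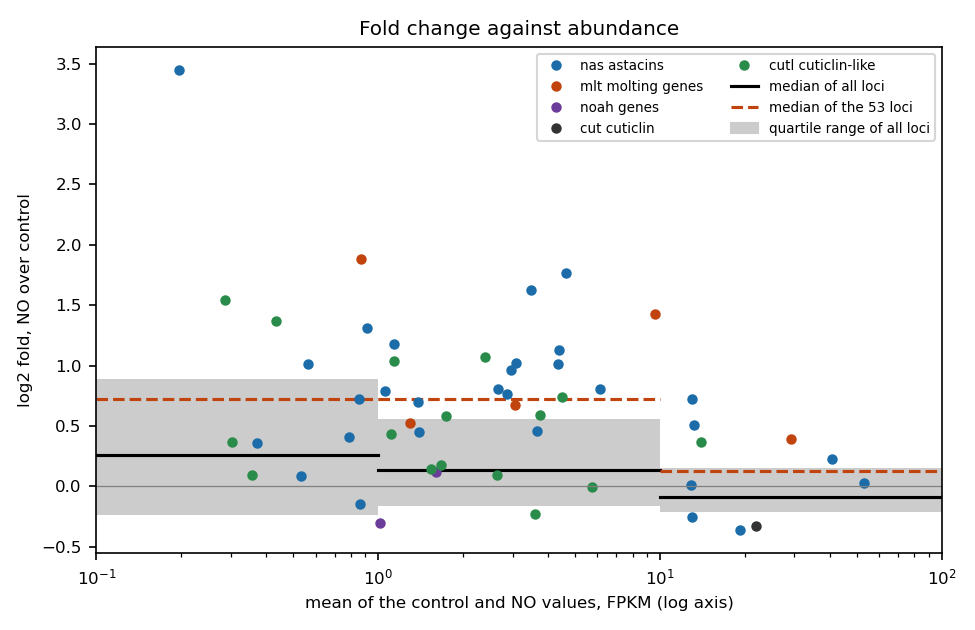
Log2 fold of NO over control against the mean of both values in FPKM (log axis) for the 53 loci. In each of 3 abundance ranges the black line is the median of all loci (0.26, 0.13 and -0.09), the grey band their quartile range and the dashed line the median of the 53 loci (0.72, 0.72 and 0.13).

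The deposited test had limited precision for these loci. The largest unadjusted p among called loci was 0.000179, which needs a fold of 3.75 SEs. With its own SE, each member would have needed at least a 2.50-fold difference (nas-20), and 46 of the 53 more than a 4-fold one, with a median of 5.997-fold. The implied SE had a median of 0.69 among members and 0.57 among all 15621 loci, and was over 1 for 11 members. The col collagen genes, more abundant at a median of 39.5 FPKM in control, had a median SE of 0.39 and a median log2 fold of 0.65 over all 125 loci. The deposited table called 7 of the 125, both directions counted together, beside 0.386% of all loci called higher and 0.0121% called lower. The difference between the collagens and the members was not tested.

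Other genes of the molting pathway had higher and lower values after NO, and none were called. The list, chosen with earlier results of these data known, held 52 gene names, of which 46 had a locus (apm-2, another name of dpy-23, had none of its own). After NO 30 were higher and 16 lower, with a median log2 fold of 0.15, where 47.8% of all loci above 0 in both conditions were higher. In the authors' deposited table none were called (0 of 46), beside 0.386% of all loci called higher and 0.0121% called lower. Before adjustment 1 gene, qua-1, was higher with a p under 0.05, where 2.75% of all loci were higher and 0.338% lower at that threshold. qua-1, a hedgehog-related gene needed for molting, was listed at 0.429 FPKM in control and 1.41 FPKM after NO (log2 fold 1.72, SE 0.68, unadjusted p = 0.0112, adjusted p = 0.750).

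Among 12 regulators of molting, 9 were higher and 3 lower. nhr-67, a nuclear receptor gene related to tailless, was listed at 0.487 and 1.42 FPKM, and the period-related timing gene lin-42 at 3.44 and 5.45 FPKM. acn-1, which encodes a relative of angiotensin-converting enzyme without its peptidase activity, was listed at 3.73 and 5.71 FPKM. nhr-23, a nuclear receptor gene that drives molting gene transcription, lay outside the naming rule and was listed at 34.7 and 30.85 FPKM (log2 fold -0.17, SE 0.40). Of 9 endocytosis, kinase and sterol-sensing genes, 6 were higher and 3 lower. The largest differences were those of the Patched-related genes ptr-4 (0.533 and 1.28 FPKM), ptr-18 (0.997 and 1.69 FPKM) and ptr-23 (12.8 and 18.2 FPKM), none of them called.

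The other protease and inhibitor genes were split, with 5 higher and 5 lower. bli-5, a Kunitz-type protease inhibitor gene, was listed at 1.34 and 3.59 FPKM with an SE of 3.93. The cathepsin gene cpz-1, at 242 and 193 FPKM, and sup-17, which encodes a membrane metalloprotease, at 58.55 and 45.8 FPKM, were lower after NO without being called. Of 8 other apical matrix genes 5 were higher and 3 lower, among them dex-1 at 1.96 and 2.82 FPKM and egg-6 at 110 and 78.9 FPKM. Of 7 genes for crosslinking and collagen processing 5 were higher and 2 lower. dpy-18, a prolyl 4-hydroxylase subunit gene, was listed at 16.7 and 23.1 FPKM, the peroxidase gene skpo-1 at 143 and 109 FPKM, and the tetraspanin gene tsp-15 at 10.3 and 13.25 FPKM.

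**Figure D4:**
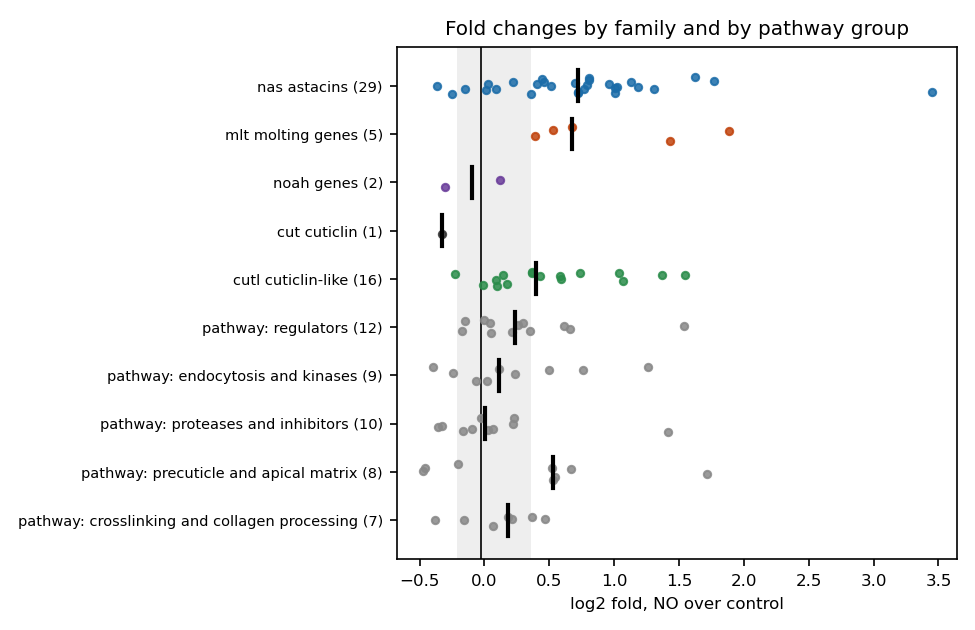
Log2 fold of NO over control for each locus by family and by group of the molting pathway list, with the number of loci in brackets and a black bar at each group's median. The grey band is the quartile range of all loci and the thin line their median of -0.02; the nas and mlt medians are 0.72 and 0.68.

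Markers of stage and tissue were present in both conditions. The 24 measured of 25 markers were all above 0, with 11 higher after NO and 13 lower, and 0 were called. Although the label gives the age as L4, the adult cuticle collagen gene col-19 was listed at 2294 and 1808 FPKM and 3 yolk protein genes at 1823 to 3948 FPKM in control and 1235 to 3003 FPKM after NO. All 5 yolk and oocyte markers were lower after NO, with log2 folds from -0.56 to -0.36, none called. These 5 averaged over 100 FPKM, a range where 23.2% of all loci were higher and the median log2 fold was -0.14. The 3 germline markers were lower as well, with log2 folds from -0.22 to -0.09. Of these, gld-1 and pgl-1 also averaged over 100 FPKM. glp-1 averaged between 10 and 100 FPKM, where the median log2 fold of all loci was -0.09. Of 3 sperm markers 2 were higher and 1 lower. The 2 body muscle and 2 pharynx markers were all higher, with log2 folds from 0.12 to 0.40, unc-54 and myo-2 in joined rows. Epidermal markers had log2 folds of 0.75 for dpy-7 (joined with glb-16, 0.691 and 1.17 FPKM), -0.17 for lin-26 (joined with F18A1.1 and lir-1) and 0.08 for elt-3. Whether the conditions differed in stage, and the part of any such difference in the values above, was not tested.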

How the data were processed

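RNA was measured in 2 control and 2 NO-treated samples of whole worms, per the labels. Per the submitters' processing notes the tools were TopHat2 2.0.2, Cufflinks 2.0.5 and R 2.15.2, with no settings stated. Genome build, annotation and library scaling: not given in the sources used here. Coordinates are therefore left out.

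The authors deposited 1 table with a value for each condition, taken as FPKM from the column layout, since the unit is not named. The deposited fold divides the NO value by the control value. The deposited p-value matched the two-sided normal tail of the deposited test statistic to within 2.83e-06 and the adjusted p a Benjamini-Hochberg adjustment over 16562 loci to within 3.40e-06. Replicates had been combined, so no count model or limma was run, and calls are those of the authors' adjusted p at 0.05.

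Computed here (Python 3.11.15, pandas 2.3.3, scipy 1.17.1) were the implied SE, 95% intervals, and a log2 ratio after adding 1 FPKM over loci averaging 1 FPKM or more, which 40 members met and 13 did not. The adjustment was tested on simulated data. Joined rows numbered 7 among the members. Named were called members, the 6 largest log2 ratios and the 4 most abundant of each family, a fixed set with known roles, and 3 genes per pathway group. nas-10, nas-21, nas-22 and nhr-23 were named after their values were seen, as were the markers given by value. The fixed set held cut-2, while toh-1 was named outside these rules. The members and lists were chosen with earlier results of these data known. Alternatives were other p thresholds, a minimum fold, other abundance minimums and pseudocounts, centring, and leaving out joined or imprecise loci.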

Additional observations from a re-analysis of the deposited data

How the results depend on the processing

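At an adjusted p threshold of 0.1, 0 members and 0 pathway genes were called. The smallest adjusted p of a member was 0.215, for nas-38, in the deposited comparison. Adjusting the p-values again over loci of at least 1 FPKM also gave 0 and 0. So did a threshold of 0.01, a minimum fold of 2, and leaving out joined loci. Under the deposited adjusted p-values, a stricter threshold, a minimum fold or fewer loci could not raise a count of 0. The log2 ratio after adding 1 FPKM, over loci averaging 1 FPKM or more, had medians of 0.39 for all members, 0.56 for nas, 0.44 for mlt, -0.04 for noah, -0.31 for cut-4, 0.29 for cutl and 0.06 for the pathway list, beside -0.03 for all 14285 loci. The mean takes both values, so nas-14, nas-15, cutl-11 and cutl-12 were kept with control values under 1 FPKM. noah-1 was kept with an NO value under 1 FPKM. A shift over 0.1 is reported. With a pseudocount of 0.1 FPKM the medians were 0.53 for all members, 0.72 for nas and 0.57 for mlt, and with none 0.55, 0.77 and 0.60, with 0.40 for cutl. At a minimum mean of 10 FPKM they were 0.12 for all members and 0.0265 for nas, and the pathway median turned to -0.0281. With no minimum the nas median was 0.40. Without joined loci it was -0.15 for noah and 0.17 for cutl. Other alternatives were added after seeing the data. An implied SE of at most 1 gave 0.11 for cutl. Centring within abundance ranges gave -0.15 for noah, and, with smaller shifts, 0.33 for all members and 0.47 for nas. It gave 0.43 for mlt, 0.19 for cutl and -0.23 for cut-4. The cause of these shifts was not tested. Centring on the median moved each log2 fold by 0.04. No paired analysis was possible because the table holds 1 value per condition, and for the same reason no replicate could be left out. Depth is unknown, so precision rests on the implied SE, which treats the authors' error model as correct.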
